A study of Fragaria vesca with 3 samples.

Results

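The regions described are the distal intergenic binding peaks of FvSEP3 that lie downstream of the gene to which they were assigned. They were chosen from a merged peak list by 2 deposited annotations, a position class of distal intergenic and a distance to the gene start above 0, on chromosomes 1 to 7. The rule picked 1423 of the 13283 peaks of the merged list, which is 10.8% of the 13191 peaks on the 7 chromosomes. They were assigned to 1251 of the 10646 genes with a peak there. No measured enrichment entered the rule.

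FvSEP3 binding was profiled by DNA affinity purification sequencing (DAP-seq) on genomic DNA from nuclei of fruit of the woodland strawberry Fragaria vesca, wild type and sampled 30 days post anthesis. Labels name 2 IP samples, called biological replicates, and 1 input sample that served as the negative control. One peak list per IP replicate (19298 and 21823 peaks) and the merged list were used. Nothing further is said of how the IP replicates were separated, so a spread between them may be technical, and the input sample was not analysed here on its own.

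SEPALLATA proteins are MADS-domain transcription factors that form dimers and tetramers with other MADS-domain proteins. They bind CArG boxes, short A/T-rich DNA elements, and are known for specifying floral organs and for roles in fleshy fruit ripening. In DAP-seq a transcription factor made outside the plant is mixed with purified genomic DNA, and the fragments that it retains are sequenced. The DNA carries no chromatin, so a peak shows that a sequence can be bound, not that it is bound or active in the fruit. A position downstream of a gene is also only a nearest-gene label, and it does not show which gene, if any, a site acts on.

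The unit of strength was the authors' fold enrichment, a ratio of signal to background given for each peak. Every mean fold in the merged list was the average of the values of both replicates. Files held no read counts, so depth is unknown. Because peaks of one experiment are not replicates of a condition, no test of difference was made, and groups of peaks are described by their values in each replicate.

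The downstream distal peaks had nearly the same median strength as peaks elsewhere, while their share of the strongest peaks was higher than in the classes in and near genes. Their median mean fold was 3.12, with quartiles of 2.82 and 3.50 and a range from 2.09 to 6.16. Replicate 1 alone gave a median of 3.15 and replicate 2 a median of 3.11. The 1377 distal intergenic peaks upstream of genes had a median of 3.15 in the mean and in either replicate, and the whole merged list on the chromosomes had 3.12. The difference between downstream and upstream distal peaks was -0.028 in the mean, -0.0017 in replicate 1 and -0.035 in replicate 2. On 5 of the 7 chromosomes the downstream median of the mean was the lower one, with differences from -0.083 to 0.021, while in replicate 1 this held on 2 chromosomes. The sign of this small difference thus varied between chromosomes and the 2 classes had nearly the same median.

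At 4-fold or more, counted on the mean of both replicates, there were 98 downstream distal peaks (6.89%, Wilson 95% interval 5.68 to 8.32%, counting error only), against 5.72% of all merged peaks on the chromosomes. Replicate 1 put 123 of them (8.64%) past 4-fold against 8.16% of all peaks, and replicate 2 put 136 (9.56%) past it against 7.98%. Peaks past 4-fold in both replicates numbered 60 (4.22%, 3.29 to 5.39%) against 2.82% of all peaks. Upstream distal peaks gave 54 of 1377 (3.92%, 3.02 to 5.08%) by the same rule, and the classes in and near genes together gave 258 of 10391 (2.48%, 2.20 to 2.80%). The share of peaks strong in both replicates was thus near that of the upstream distal peaks. It was above that of the classes in and near genes, where these counting intervals did not overlap. On the mean at 4-fold, the classes in and near genes gave 5.44% (5.02 to 5.89%), an interval that overlapped the downstream one. Such intervals cover counting error only and are no test of a difference. Peaks with a mean of 5-fold or more were 5 of 1423 in the downstream class and 4 of 1377 in the upstream distal class. The classes in and near genes had 16 of 10391, and all merged peaks on the chromosomes 25 of 13191.

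Replicate values were moderately related over the peaks. Spearman's rho between the 2 fold values was 0.55 over the 1423 downstream peaks, a description across peaks that share the same libraries, and 0.55 over the upstream ones. The median absolute difference between replicates was 0.358, and 75 peaks (5.27%) differed by more than 1. Replicate 2 was the higher one at 715 of 1423 peaks. Differences between single peaks below about that size cannot be ordered with 2 values each.

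The highest value of the class belonged to a peak 10508 bp past the start of FvH4_4g16251, annotated as protein FAR1-RELATED SEQUENCE 5-like, a member of a family that in Arabidopsis derives from a transposase. This peak lay on chromosome 4 from 20225765 to 20226015 and reached 6.01 in replicate 1 and 6.30 in replicate 2, a mean of 6.16 ± 0.201 (SD, n = 2). It ranked 2 among all merged peaks on the chromosomes. Of the next peaks, one at FvH4_7g21181 on chromosome 7 from 17049716 to 17049981 had 5.60 and 5.81. Another at FvH4_6g20530 on chromosome 6 from 14145439 to 14145718 had 5.46 and 5.79. Both genes encode uncharacterized proteins, and both peaks were high in each replicate, with replicate points 3 bp and 1 bp apart.

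A peak at FvH4_5g04761, a gene with no description, had 4.75 and 5.54 on chromosome 5 from 2801206 to 2801515. The peak at FvH4_1g25360, annotated as transcription factor HBP-1b(c1)-like, a bZIP factor, had 4.29 in replicate 1 and 5.97 in replicate 2 on chromosome 1 from 17117982 to 17118440. A spread of that size, 5.13 ± 1.18 (SD, n = 2), leaves its rank uncertain. The remaining 5 of the 10 strongest peaks had means from 4.85 to 4.99 and lay at FvH4_7g02154, FvH4_4g10001, FvH4_6g24321, FvH4_3g30961 and FvH4_2g08114. Of these genes only FvH4_6g24321 has a named product, a pentatricopeptide repeat protein of the kind that binds organelle RNA. Its peak was also the one whose replicates differed most, at 3.90 and 5.90. Next in that respect were the peaks at FvH4_7g18990, an ATPase GET3, with 4.21 and 2.41, and at FvH4_1g29103 with 3.44 and 5.23.

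**Figure D1:**
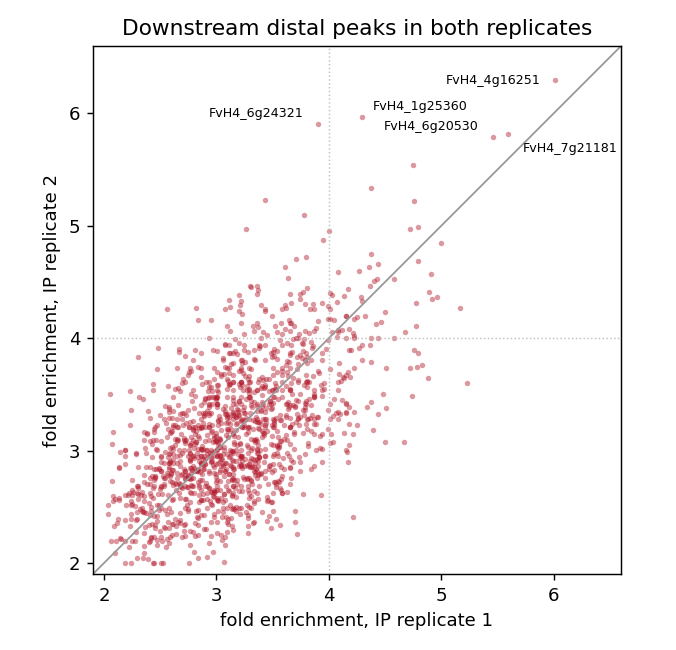
Fold enrichment of each of the 1423 downstream distal peaks in IP replicate 1 (horizontal) and IP replicate 2 (vertical), with the line of equal values and dotted lines at 4-fold. The points form a broad cloud around 3, and the peak at FvH4_4g16251 is the highest in both replicates.

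Distances from the peak midpoint to the gene start ran from 433 to 55627 bp, with a median of 4002 bp and quartiles of 2404.5 and 6506 bp. Upstream distal peaks had a median of 3915 bp, and their least distance was 2006 bp, since the first 2 kb before a start belong to the promoter classes of the deposited annotation. The downstream class begins past the end of a gene, so a peak at a small distance belongs to a gene shorter than that distance. Within 1 kb of the start lay 65 downstream peaks, of which 26 (40%) were at genes with no description. At the near edge of the rule stood the peaks at FvH4_1g23522, FvH4_4g34851 and FvH4_6g29471, at 433, 444 and 445 bp. Their mean folds were 2.64, 3.36 and 2.84. Just outside it, the nearest distal peaks on the other side of a gene start were those at -2006, -2007 and -2009 bp, with mean folds of 3.09, 2.76 and 2.79.

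**Figure D2:**
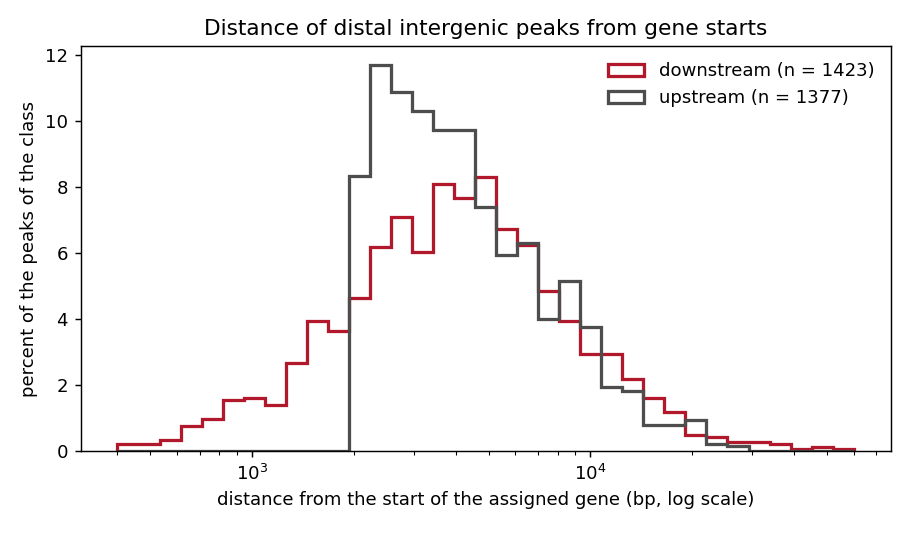
Percent of downstream (n = 1423) and upstream (n = 1377) distal intergenic peaks in steps of distance from the start of the assigned gene, in bp on a log scale. Upstream peaks begin near 2006 bp, downstream peaks at 433 bp, and both classes thin out beyond 10 kb.

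The 5 distance bins held 510, 370, 380, 139 and 24 downstream peaks, from up to 3 kb to over 20 kb. Within 10 kb of the start lay 88.5% of them. Median mean folds were 3.13, 3.17, 3.11, 2.99 and 3.03 in that order. Replicate 1 gave medians of 3.12, 3.20, 3.17, 3.005 and 3.12, and replicate 2 gave 3.16, 3.12, 3.09, 3.02 and 2.96. The spread of single peaks within each bin was far wider than these steps, with quartiles of 2.81 and 3.48 in the nearest bin and of 2.77 and 3.41 from 10 to 20 kb. Peaks past 4-fold in the mean made up 5.88%, 7.30%, 8.42%, 4.32% and 12.5% of the bins, the last being 3 of 24 peaks. The medians fell from bin to bin in replicate 2, from 3.16 to 2.96, and followed no order in replicate 1.

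**Figure D3:**
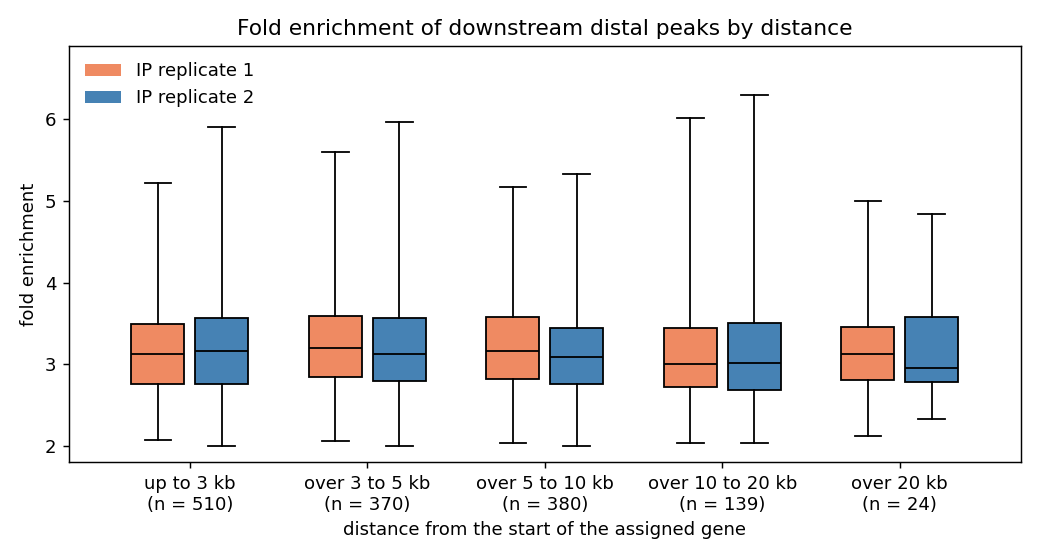
Fold enrichment of the downstream distal peaks in IP replicates 1 and 2 by distance bin; boxes span the quartiles with the median, and whiskers reach the lowest and highest peak. All 10 medians lie between 2.96 and 3.20.

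In the nearest bin the strongest peaks were those of FvH4_6g24321, given above, of FvH4_3g42661 with 4.72 and 4.97, and of FvH4_2g05430 with 4.91 and 4.57. Neither of the last 2 genes has a named product. From 3 to 5 kb they were the peaks of FvH4_7g21181, FvH4_6g20530 and FvH4_5g04761. From 5 to 10 kb the named products were a chloroplast lipoxygenase (linoleate 13S-lipoxygenase 2-1, FvH4_7g00420), an enzyme class that oxidises fatty acids on the way to jasmonate and leaf volatiles, and serine protease SPPA of the chloroplast (FvH4_5g13110). Their peaks had 5.17 and 4.27, and 4.89 and 4.41. From 10 to 20 kb, after the peak of FvH4_4g16251, came FvH4_3g30961 with 4.80 and 4.99 and FvH4_3g46101, encoding the TATA-binding protein-associated factor BTAF1, with 4.01 and 4.40.

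Beyond 20 kb the strongest peak, at FvH4_4g10001, lay 21947 bp past the gene start on chromosome 4 from 12397344 to 12398021, with 4.99 and 4.84. A peak 32479 bp past the start of FvH4_4g09130, which encodes a bifunctional enzyme of biotin synthesis, had 4.29 and 3.94, and a second peak 1113 bp from it had 3.65 and 3.74. A peak 38149 bp past the start of FvH4_4g09321 had 3.65 and 4.39. The 3 farthest peaks, at FvH4_4g08882 (55627 bp), FvH4_4g09131 (51283 bp) and FvH4_4g10091 (47842 bp), were moderate, with means of 3.22, 2.88 and 2.40. All of these far peaks were on chromosome 4.

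Chromosome 4 held more of the distant peaks than the others. Of the 24 peaks beyond 20 kb, 17 were on it, and 0 to 2 on each other chromosome. Its 261 downstream distal peaks were 13.3% of its peaks, against 9.10 to 11.9% elsewhere, and their median distance was 5064 bp against 3421.5 to 4254 bp. Peaks beyond 10 kb made up 21.1% of them and 6.25 to 13.8% on the other chromosomes. Upstream distal peaks were also at their highest share there, at 14.0%, with 6 of the 13 that lay beyond 20 kb. A stretch from 9 to 13 Mb, chosen after the positions had been seen, held 16 of the 17 peaks. In it 59 of 193 peaks (30.6%) belonged to the downstream distal class, at a median distance of 8655 bp. Their median fold was 3.21 and 4 of the 59 passed 4-fold, so they were not weaker than the rest. How many genes are annotated per Mb was not tested.

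**Figure D4:**
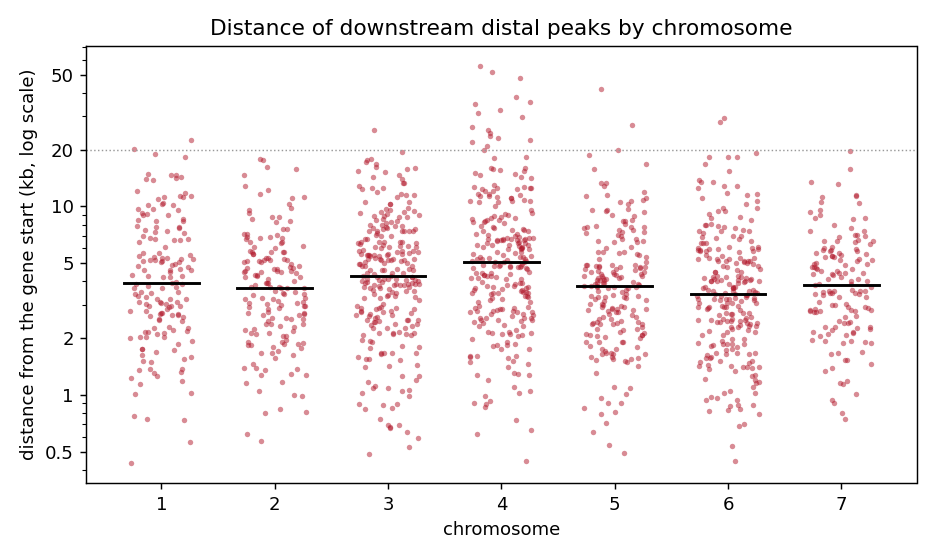
Distance of each downstream distal peak from the start of its gene (kb, log scale) by chromosome, with a bar at the median and a dotted line at 20 kb. Chromosome 4 has the highest median, 5064 bp, and 17 of the 24 peaks above the line.

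Applied to each replicate list, the same rule picked 2183 peaks (11.4% of the list on the chromosomes) in replicate 1 and 2443 (11.3%) in replicate 2. A peak of any class in the second list, with at least 1 shared bp, was found for 66.6% of those picked in replicate 1 (Wilson 64.6 to 68.6%). The reverse share, for those picked in replicate 2, was 59.7% (57.8 to 61.6%). Upstream distal peaks gave 69.0% (67.0 to 71.0%) and 60.0% (58.0 to 61.9%), and the classes in and near genes gave 71.1% (70.3 to 71.8%) and 62.5% (61.8 to 63.2%). The downstream class was the lowest of these in both lists. Its interval overlapped that of the upstream distal peaks and lay below that of the classes in and near genes in either list. Overlap rose with strength, from 59.1% in the lower part of the replicate 1 peaks to 74.1% in the part at or above their median fold, and from 52.5% to 66.9% in replicate 2. By distance bin it stayed between 64.3% and 68.4% in replicate 1 and between 58.8% and 61.5% in replicate 2.

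The position of the peaks could be compared as well. Each replicate list gives a distance that runs from a point inside the peak, and at the 1407 downstream peaks assigned to one gene in both lists these points differed by a median of 36 bp. At 62.5% of them the points were within 50 bp, against 61.9% of upstream distal and 60.9% of all merged peaks. Median peak length was 378 bp against 394 bp for all. Each merged peak is given with its location in both replicate lists, so all 1423 were found in both by construction. Of these, 1377 (96.8%) met the rule in both. Neighbouring peaks of any class were a median of 5491 bp away, and 194 downstream peaks (13.6%) had one within 1 kb, against 14.2% of all peaks.

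The 1251 assigned genes mostly had a single downstream distal peak. Of them 1117 had 1, 102 had 2, 29 had 3 and 3 had more. Median folds were 3.13 for peaks alone at their gene, 3.11 at genes with 2 and 3.04 at genes with 3 or more, while median distances rose from 3536 to 5673 and 8715.5 bp. Of the 1423 peaks, 42.7% were at a gene with any further peak, of this class or another. Another class of peak was found at 351 of the genes (28.1%), and 900 (71.9%) had downstream distal peaks only. Of the 1190 genes with upstream distal peaks, 431 (36.2%) had a peak of another class.

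The gene with most peaks was FvH4_5g28402 on chromosome 5, annotated as protein TPX2-like, a spindle assembly factor. Its 6 peaks lay between 2421 and 11298 bp past the start, and their means, from 2.23 to 2.90, were all under the class median. FvH4_1g29809, a retrovirus-related Pol polyprotein, had 5 peaks between 3350 and 22401 bp with means from 2.48 to 3.08. FvH4_6g25490, a haloacid dehalogenase-like hydrolase, had 4 between 7920 and 18174 bp with means from 2.87 to 3.44. Many sites at one gene thus did not go with high enrichment at these 3 genes.

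Others joined a strong site and weaker ones. At FvH4_5g30820, encoding an ammonium transporter, peaks at 2295, 3916 and 4757 bp had 3.57 and 3.99, 2.08 and 3.17, and 4.27 and 4.60 in replicates 1 and 2. FvH4_2g24100, without a description, had 4.68 and 4.06 at 2049 bp and less at 5824 and 6476 bp. FvH4_5g35170, encoding a flavonoid 3',5'-methyltransferase, an enzyme class that methylates anthocyanins, had 4.37 and 4.46 at 3606 bp. Its further peaks at 6507 and 9710 bp had means of 2.49 and 2.71. In each of these 3 genes the strong peak was past 4-fold in both replicates. They were picked by fold among the 29 genes with 3 peaks, so a strong peak at each follows from that choice.

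A promoter peak, within the 2 kb before the start, was present at 119 genes (9.51%) with a downstream distal peak. Comparing the strongest of each kind, the downstream peak was higher in the mean at 60 of 119 genes, in replicate 1 at 56 and in replicate 2 at 63. Median folds were 3.10 downstream and 3.12 in the promoter. Each position was thus the higher one at about as many genes as the other.

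Distances and peak positions in the 3 lists also fixed the start and strand of some genes. Strand could be worked out for the genes of 1021 downstream peaks, 501 on the plus and 520 on the minus strand, so neither orientation prevailed. Among them 22 peaks lay within 5 kb upstream of the start of a second gene on the same strand that could be placed, and 111 within 10 kb. A peak 703 bp past the start of FvH4_6g00153 lay 2111 bp before FvH4_6g00160, an AP2-like factor PLT1, which is a root stem cell regulator in Arabidopsis. A peak 4203 bp past the start of FvH4_2g03461 lay 4772 bp before FvH4_2g03460, a UDP-glucose flavonoid 3-O-glucosyltransferase, which adds the sugar that stabilises anthocyanins. Only genes with enough peaks could be placed and genes on the other strand were not counted, so these counts are lower limits.

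Gene functions were read from the descriptions in the lists. Genes with no description were common downstream: 306 of the 1251 genes (24.5%), against 15.2% of the genes of upstream distal peaks and 11.3% of all genes with a peak. Over peaks the shares were 24.7% (22.5 to 27.0%), 16.4% (14.6 to 18.5%) and, in the classes in and near genes, 8.89% (8.36 to 9.45%). The share was highest up to 3 kb, at 30.6%, and 20.1 to 25% in the bins farther out. Uncharacterized proteins made up a further 27.3% of the genes, close to the 25.5% of all genes. Of the 98 peaks at 4-fold or more, 24 (24.5%) were at genes without a description and 30 (30.6%) at uncharacterized proteins. These shares were near the 24.7% and 27.4% of all downstream distal peaks.

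For the other functions, 27 lists of genes were defined by words in the descriptions, and 201 of the 1251 genes (16.1%) fell into one, against 18.7% of all genes with a peak. A list can hold only described genes, and 945 of the 9445 described genes with a peak (10.01%) had a downstream distal one. Each list is read beside that share. All listed genes together gave 201 of 1988 (10.1%). Lists are short and many counts depend on the peak list used. Shares in a replicate's list are given where they fall on the other side of the described genes' share. They are also given for some lists that stayed on the same side. The described genes' share was 11.2% in replicate 1 and 11.0% in replicate 2.

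Transcription factors of the 8 lists were assigned 36 of the downstream peaks (2.53%), against 2.46% of all peaks. Both shares include peaks at genes with no description, which no list can hold. Such peaks were 24.7% of the downstream ones and 11.4% of all, so the 2 shares do not compare described peaks. The NAC list, of plant-specific factors that act in secondary walls, stress and ripening, had 8 of its 29 genes here (27.6%), and 20.5% and 26.8% in the replicate 1 and 2 lists. A peak at FvH4_5g30600, ONAC010-like, 2399 bp past the start had 4.17 and 4.44. One at FvH4_5g31040, NAC domain-containing protein 7-like, had 3.66 and 4.31 at 4291 bp. At FvH4_7g17550, NAC domain-containing protein 43-like, whose Arabidopsis namesake switches on secondary wall formation, a peak at 8711 bp had 4.39 and 3.18 and a second at 3013 bp had 3.09 and 2.68. NAC 19, 48, 72, 76 and 77 type genes made up the rest of the list.

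AP2 and ERF factors, which include the ethylene response factors, had 8 of 35 genes (22.9%). FvH4_6g00160, PLT1, had 4.50 in replicate 1 but 3.07 in replicate 2 at 4213 bp. FvH4_2g35620, a dehydration-responsive element-binding protein, had 3.27 and 3.57 at 1176 bp, and FvH4_6g28880, ERF003-like, had 3.22 and 3.61 at 4049 bp. None of the 9 peaks of this list had a mean of 4 or more.

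MYB factors had 5 of 42 genes (11.9%) and bHLH factors 4 of 34 (11.8%), near the described genes' share. In the replicate 1 list these were 17.5% and 17.9%, and in the replicate 2 list 12.96% and 11.1%. The strongest were MYB44-like FvH4_2g05210 with 3.72 and 3.73, and bHLH113-like FvH4_2g04900 with 3.84 and 2.83. Homeobox factors had 3 of 42 genes, including WUSCHEL-related homeobox 4 (FvH4_2g34030), a vascular cambium regulator in Arabidopsis, with 3.13 and 2.48. GRAS, TCP and SBP factors had 3 of 36 (8.33%, and 11.8% in replicate 2), with one strong peak of 4.08 and 4.07 at FvH4_5g00020, scarecrow-like protein 6, which lay 15772 bp past the gene start and from 557 to 1842 on chromosome 5. A single MADS-box gene of 25 had a downstream distal peak. This was FvH4_6g08460, agamous-like AGL80, whose Arabidopsis namesake acts in the central cell of the ovule, with 3.997 and 3.987 at 5026 bp. The WRKY list had 0 of 19 genes.

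The 9 lists linked to ripening were assigned 36 downstream peaks (2.53%), against 2.74% of all peaks. These shares also include peaks at genes with no description, 24.7% of the downstream ones and 11.4% of all. They therefore do not show that described downstream peaks were less often in these lists. Gibberellin, aroma and flavonoid lists stood above the described genes' share in the merged list and in both replicate lists. Upstream distal peaks of the merged list were at 4 of the 18 gibberellin, 0 of the 14 aroma and 7 of the 42 flavonoid genes. The flavonoid count was thus nearly the same in both distal classes. The pectin, wall glycan, abscisic acid and sugar lists stood below it in all 3, and the auxin and ethylene lists stood below it in the merged list only. The gibberellin, cytokinin and brassinosteroid list had 7 of 18 genes (38.9%), and 34.6% and 25.9% in the replicate 1 and 2 lists. Of the 7 genes, 5 encode gibberellin oxidases. Gibberellin 3-beta-dioxygenase, which makes the bioactive hormone, was present as FvH4_1g04200 with 3.61 and 4.64 at 2138 bp and as FvH4_6g30780 with 4.08 and 3.28 at 1976 bp. Gibberellin 20 oxidase, the step before, was present as FvH4_7g28670 with 3.64 and 3.43. None of these 3 peaks was past 4-fold in both replicates.

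The aroma list had 5 of 14 genes (35.7%), and 26.3% and 25.8% in the replicate 1 and 2 lists. Beside lipoxygenase FvH4_7g00420, it held FvH4_5g24240, an alcohol acyl transferase of the class that makes fruit esters, with 3.51 and 3.54 at 7271 bp. FvH4_2g14750, an alcohol dehydrogenase, had 3.77 and 3.15 at 11680 bp. The 6 peaks of these 5 genes lay at 3718 to 25344 bp, with a median of 6686 bp against 4002 bp for all downstream distal peaks. FvH4_4g09530, within the stretch of chromosome 4 from 9 to 13 Mb, gave the farthest and another at 5962 bp.

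Flavonoid and phenylpropanoid genes were 8 of 42 (19.0%). After FvH4_5g35170, the strongest peak was at FvH4_3g44440, shikimate O-hydroxycinnamoyltransferase-like, an enzyme class of lignin and chlorogenic acid synthesis, with 4.18 and 4.09 668 bp past the start. A second gene of that description on the same chromosome, FvH4_3g44400, had 3.48 and 3.06. Peaks below 4-fold were also assigned to a leucoanthocyanidin dioxygenase, an anthocyanidin reductase and 2 anthocyanidin glucosyltransferases. These act in the last steps of anthocyanin and proanthocyanidin synthesis.

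Auxin genes were 3 of 41 in the merged list (7.32%), but 9 of 55 (16.4%) and 10 of 60 (16.7%) in the replicate 1 and 2 lists. FvH4_6g34740, auxin-binding protein ABP19a, had 4.19 and 3.89, and FvH4_6g02870, an IAA4-like repressor of auxin response, had 3.72 and 3.63, both less than 2 kb past the start. FvH4_5g24600, auxin-induced protein 15A-like, had a peak of 3.02 and 2.96 and a weaker one. Ethylene genes were 1 of 12 (8.33%), but 3 of 19 (15.8%) and 4 of 19 (21.1%) in the replicate lists. The merged one was a 1-aminocyclopropane-1-carboxylate synthase (FvH4_1g18490), which makes the ethylene precursor, with 4.04 and 3.31. Abscisic acid and PP2C genes, the signalling pathway linked to strawberry ripening, were 0 of 38.

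Cell wall and sugar genes were few in the merged list and more in the list of either replicate. Pectin genes were 3 of 40 (7.5%), with 6 in each replicate list (9.84% and 9.38%) and 0 at a −log10 q of at least 10. The 3 had means from 2.73 to 2.97 at a pectinesterase inhibitor (FvH4_5g19730), polygalacturonase ADPG2 (FvH4_6g22970) and a pectinesterase (FvH4_4g21500). Expansin and wall glycan genes were 1 of 48 (2.08%), with 5 in each replicate list (7.04% and 6.94%). The one was a beta-galactosidase (FvH4_6g25680) with 3.01 and 3.41. Sugar genes were 3 of 48 (6.25%), with 6 in each replicate list (8.82% and 7.59%). The 3 were FvH4_4g16890, an ERD6-like sugar transporter, with 2.87 and 3.59, FvH4_1g18730, hexokinase-like, with 3.66 and 2.70, and FvH4_2g21990, the sugar transporter SWEET1-like, with 3.34 and 2.85. All of these merged peaks had means under 4-fold.

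**Figure D5:**
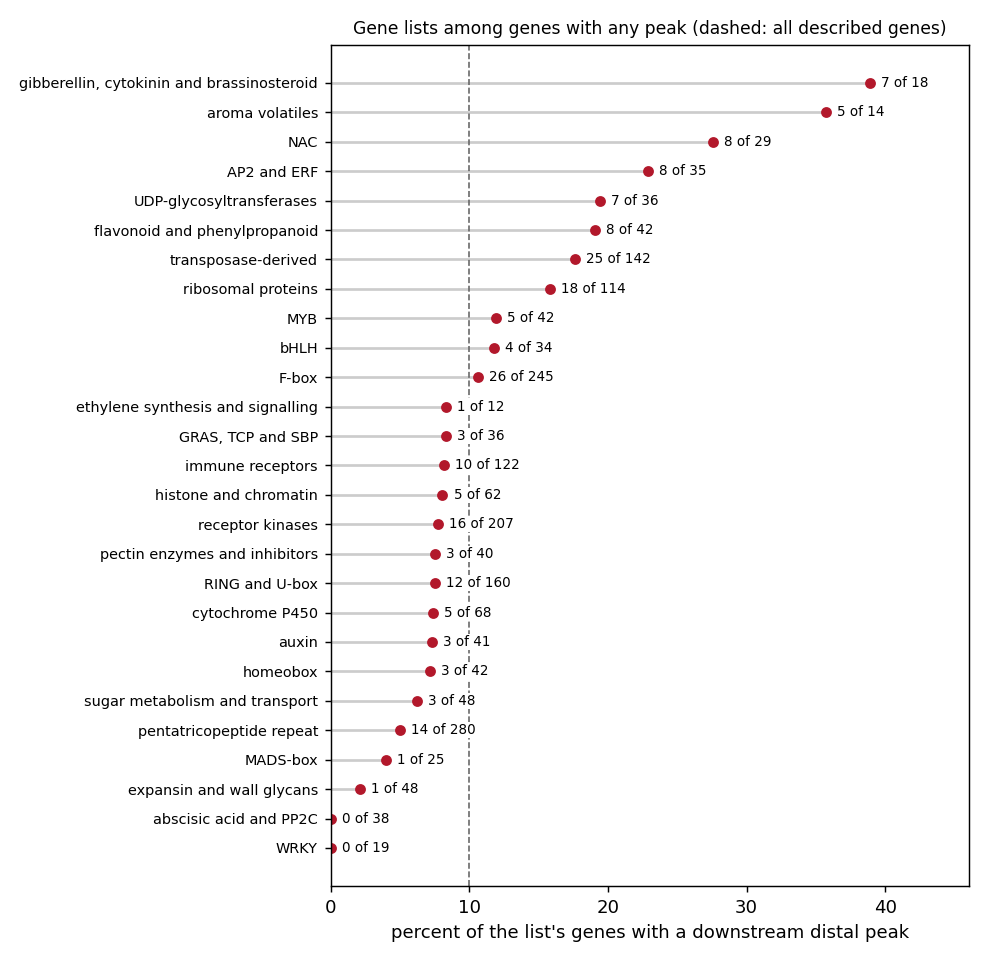
Percent of each list's genes, among genes with any merged peak, that have a downstream distal peak, with the counts beside each point and a dashed line at the 10.01% of all described genes. Gibberellin, aroma and NAC lists are the highest, at 38.9%, 35.7% and 27.6%, and the abscisic acid and WRKY lists are at 0.

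Among the larger families, genes derived from transposases and other mobile elements were 25 of 142 (17.6%), with 34 peaks. Upstream distal peaks were at 22 of the 142, nearly as many. Next to FvH4_4g16251, the strongest were 2 more FAR1-RELATED SEQUENCE 5-like genes, FvH4_4g10312 with 3.77 and 3.94 and FvH4_6g21931 with 3.79 and 3.87. The 34 peaks had a median mean fold of 3.08, and 1 of them passed 4-fold. They made up 1.18% (6 peaks) of the downstream peaks up to 3 kb, 2.70% from 3 to 5 kb and 2.63% from 5 to 10 kb. From 10 to 20 kb they were 5.04% (7 peaks) and beyond 20 kb 4.17% (1 peak). These shares are over all peaks of a bin, and the part at genes with no description differed between bins. It was 30.6% up to 3 kb and 20.1% from 10 to 20 kb. FvH4_1g29809 alone gave 5 of the 34.

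UDP-glycosyltransferases, which attach sugars to small molecules, were 7 of 36 (19.4%), and 4 of their 9 peaks passed 4-fold in the mean. FvH4_2g03280 had 4.29 and 4.33, FvH4_6g17020 had 4.15 and 4.20, and FvH4_1g00420 had 4.37 and 3.94. The first 2 were past 4-fold in both replicates. Cytochrome P450 genes, oxidases of secondary metabolism and hormones, were 5 of 68, led by FvH4_3g41150 with 4.37 and 3.78.

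F-box genes, which select proteins for degradation, were 26 of 245 (10.6%), near the described genes' share, and 13.2% and 13.7% in the replicate lists, the highest peak being at FvH4_4g00363 with 4.12 and 3.66. RING and U-box ligases were 12 of 160 (7.5%, and 12.6% in replicate 1), led by FvH4_5g09630 with 4.01 and 4.17. Pentatricopeptide repeat genes were 14 of 280 (5%), below that share in all 3 lists, and after FvH4_6g24321 their strongest peak, at FvH4_5g25520, had 4.08 and 4.59.

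Receptor kinases were 16 of 207, with 4.75 and 3.89 at FvH4_6g33072, HAIKU2, a seed size receptor in Arabidopsis. Immune receptors were 10 of 122, with 3.89 and 4.09 at FvH4_4g29310, an RPP13-like disease resistance protein. Histone and chromatin genes were 5 of 62 (8.06%, and 12.3% in replicate 1), and their highest values were 3.58 and 3.71 at FvH4_6g31380, the histone chaperone ASF1-like. Ribosomal protein genes, taken as a housekeeping comparison, were 18 of 114 (15.8%), above the described genes' share in all 3 lists, with no peak at a mean of 4 or more.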

How the data were processed

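The samples were 2 IP samples and 1 input sample of DAP-seq with FvSEP3. BWA aligned the reads and MACS2 called the peaks, per the submitters' processing notes, while versions, settings and genome build are not given in the sources used here. Lists covered either IP replicate alone or both merged, per the file headers. Fold enrichment (a ratio) and −log10 q-values are the authors' deposited values, and no merged peak had a fold under 2.0008 or a −log10 q under 3.03 in either replicate. Peak length, position class, gene assignment, description and distance were also deposited by the authors. A test on the files showed that the merged list's distance runs from the peak midpoint and that of the replicate lists from a point inside the peak.

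Python 3.11.15, pandas 2.3.3 and scipy 1.17.1 were used, and overlaps were checked against bedtools 2.31.1, with 13597 of 19298 replicate 1 peaks shared by both codes. Gene starts and strands were derived from distances and peak positions, a step that recovered 500 of 500 genes when tested on simulated data. In the lists it resolved the start of 7018 of 19990 transcripts (35.1%) and gave 0 conflicts. Whether the resolved starts and strands are correct was not tested against a gene annotation. Intervals are Wilson 95% intervals and cover counting error only. SDs describe the 2 deposited replicate values. The reference table matched protein identifiers of 578 of the 1251 genes and was used for nothing else. Peak sequences and motifs were not analysed here.

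The class and the lists were chosen with earlier results of these data known, and words for the aroma, AP2 and ERF, pectin, wall glycan and mobile element lists were changed after counts had been seen. Reading the lists beside described genes was also chosen after seeing the data. The genes named were the 10 peaks of highest mean fold and the 3 highest of each distance bin and of each list. Also named were the 3 nearest, the 3 farthest and the 3 whose replicates differ most. Up to 6 genes with 3 or more peaks were taken by number of peaks and then by fold. Genes outside this rule, such as those near a second gene, the second peaks of FvH4_4g09130 and FvH4_7g17550, and products listed without an identifier, were chosen after their values were seen.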

Additional observations from a re-analysis of the deposited data

How the results depend on the processing

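No paired analysis was possible because the input sample has no numbered replicate and the values come from no test. Leaving out one replicate by using the other's list alone gave 2183 to 2443 peaks, median folds of 3.01 to 3.07, 88.9 to 89.0% within 10 kb, 7.04 to 7.24% at 4-fold or more, 54.4 to 58.8% with another peak at their gene in place of 42.7%, and 325 to 333 listed genes in place of 201. A −log10 q of at least 10 left 790 peaks with a median of 3.44, 89.9% within 10 kb, 12.4% at 4-fold or more, 27.8% with another peak at their gene and 124 listed genes. Peaks at or above the median fold, chosen by the value they are described by, numbered 707, with a median of 3.50, 90.1%, 13.9% and 24.3%, and their downstream minus upstream difference was 0.0075. A distance of at least 3000 bp gave 913 peaks, 82.1%, 7.45% and 50.6%, the second by construction. One peak per gene gave a median of 3.16, 91.2%, 7.83% and 34.9%. Keeping contigs gave 87.8% within 10 kb, and leaving out chromosome 4, chosen after seeing the data, 90.7%. Overlap of at least 50% of both peaks gave 60.3% and 54.2% of replicate 1 and 2 peaks shared, and a −log10 q of at least 10 in either list gave 56.5% and 45.4%, with fewer peaks to match. The cause of these shifts was otherwise not tested. The downstream minus upstream difference was from -0.050 to -0.0053 in the other settings. Of the 27 lists, 14 changed their count by over 1.5 times at the stricter q and 16 in either replicate list. The NAC list went from 8 genes to between 7 and 11, and the gibberellin list from 7 to between 5 and 9. These counts were not scaled to the number of peaks, which was 1423 in the main setting. As a share, the gibberellin list went from 38.9% to 34.6% and 25.9% in the replicate lists, and the NAC list from 27.6% to 20.5% and 26.8%. Depth is unknown, so what it limits cannot be stated.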

Other observations

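The rule also met 41 peaks on 4 contigs, which were left out of the class. Their median fold was 2.56 and 1 of them passed 4-fold. That peak, on contig 7 from 29344 to 29628 and 11740 bp past the start of FvH4_c7g00010, had 7.21 in replicate 1 and 7.56 in replicate 2, above every downstream distal peak on the chromosomes. The 41 peaks were assigned to 11 genes, among them a cellulose synthase-like protein D3 (FvH4_c1g00730) with a peak of 3.82 and 3.65, and an NADH dehydrogenase subunit 2 (FvH4_c1g00520), a mitochondrial protein, with peaks of up to 3.31 and 3.42 in replicates 1 and 2.

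On the chromosomes, a few downstream distal peaks were at genes described as parts of organelle complexes. On chromosome 2, FvH4_2g28480, a partial maturase, had peaks of 2.84 and 2.83 and of 2.79 and 2.76, and FvH4_2g28400, a partial ATP synthase subunit 1, had one of 2.77 and 2.80, all within one stretch from 22331860 to 22336582. The strongest of them, at FvH4_6g41620, an NADH-plastoquinone oxidoreductase subunit 7, had 4.78 and 4.11.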
